A study of Mus musculus with 10 samples.

Results

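Described here are 10 immediate early genes of the mouse, namely Egr1, Egr2, Egr3, Egr4, Nr4a1, Nr4a2, Nr4a3, Ier2, Dusp1 and Zfp36, out of the 39273 genes listed in an RNA-seq series of ureteric bud (UB) and collecting duct (CD) organoids. They were taken by gene name, and they were selected on measured values of these same libraries, chiefly the levels of UB organoids at day 20 against days 10 and 5. The levels of the 10 genes are therefore a description and carry no test. The series holds 10 libraries in 5 groups of 2. UB organoids were grown from the ureteric bud of E11.5 kidneys of Wnt11-RFP +/- embryos, a cross of C57BL/6 and Swiss Webster, in which a red fluorescent protein reports Wnt11 expression at the bud tips. They were kept for 5, 10 or 20 days in mUBCM, a medium with GDNF, FGF9, CHIR99021, TTNPB, LDN-193189, A83-01, SB202190, Rspo1 and a JAK inhibitor, and were passaged along the way. CD organoids carried the same genotype and strain labels and were UB organoids moved at day 10 into CDDM, a differentiation medium with FGF9, Y27632, DAPT, the MEK inhibitor PD0325901, aldosterone and vasopressin. Adult mCD were cells sorted by FACS from the kidneys of Hoxb7-Venus mice about 2 months old. In these mice the Hoxb7 promoter drives a fluorescent protein along the ureteric lineage. The sample labels of the adult libraries repeat the embryonic age, the Wnt11-RFP genotype and the word organoid, whereas the series text and the methods describe sorted adult cells. No source states that 2 libraries of a group came from separate cultures or animals, so the spread between them, and every p-value below, may cover technical variation only. In bulk RNA, a smaller share of expressing cells and less RNA per cell cannot be told apart.

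Immediate early genes are transcribed within minutes of a stimulus, without new protein synthesis, because the factors that bind their promoters, such as SRF with its ternary complex partners and CREB, are already present and are activated by kinases. The Egr proteins are zinc finger transcription factors and the Nr4a proteins are orphan nuclear receptors, and both families go on to switch on later genes. Dusp1 and Zfp36 close the loop: Dusp1 is a nuclear phosphatase that inactivates MAP kinases, and Zfp36, also known as tristetraprolin, binds AU-rich elements of short-lived mRNAs and promotes their decay. Ier2 encodes a small nuclear protein. In the ureteric bud, GDNF acting through the receptor tyrosine kinase Ret, and FGFs through their own receptors, feed the same ERK pathway.

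RefSeq promoter windows, from 250 bases before to 50 bases after a start site on GRCm38.p6, were used for 7 of the 10 genes, with 11 windows in all. Egr3 and Ier2 had no window in the table, and Egr1 was left out of the search. The windows were searched on both strands for the CArG box, the letters to which SRF binds, for the cyclic AMP response element TGACGTCA (CRE) and its short form TGACG, to which CREB binds, and for the Egr binding site GCGTGGGCG or GCGGGGGCG. A full CRE contains the short form once on each strand. Stretches that hold the matches are shown for an Egr gene, the Nr4a genes and both feedback genes, since SRF and CREB are the factors known to start their transcription. All read 5′ to 3′ along the gene, and capitals mark CArG boxes, CREs and short CREs.
Egr2, chr10:67537738-67537838, plus strand: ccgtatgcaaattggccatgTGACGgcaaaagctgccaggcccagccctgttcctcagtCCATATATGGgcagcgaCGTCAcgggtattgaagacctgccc
Zfp36, chr7:28379267-28379296, minus strand: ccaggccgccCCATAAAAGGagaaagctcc
Dusp1, chr17:26508588-26508683, minus strand: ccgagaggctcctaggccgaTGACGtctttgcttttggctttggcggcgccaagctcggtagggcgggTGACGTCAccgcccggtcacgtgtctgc
Nr4a1, chr15:101266596-101266830, plus strand: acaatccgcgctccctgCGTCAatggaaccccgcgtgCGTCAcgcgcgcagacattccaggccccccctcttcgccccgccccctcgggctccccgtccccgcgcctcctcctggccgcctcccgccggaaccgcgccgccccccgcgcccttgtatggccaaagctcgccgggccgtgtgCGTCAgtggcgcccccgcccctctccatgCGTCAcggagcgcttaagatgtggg
Nr4a2, chr2:57124090-57124223, minus strand: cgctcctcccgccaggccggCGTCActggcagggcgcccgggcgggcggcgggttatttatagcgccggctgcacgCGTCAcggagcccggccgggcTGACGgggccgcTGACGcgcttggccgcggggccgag
Nr4a3, chr4:48045055-48045124, plus strand: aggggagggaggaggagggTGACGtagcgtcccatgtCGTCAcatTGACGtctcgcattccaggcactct

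A CArG box lay in windows of 2 of the 7 genes, Egr2 and Zfp36, against 1.81% of all 27025 genes with a window. Egr2 had 5 of the 11 windows. In the Egr2 window printed above it began 72 bases before the start site, and in Zfp36 58 bases before it. A full CRE lay only in the window of Dusp1, 143 bases before the start site, against 2.03% of all genes. The 3 Nr4a windows had 4 short CREs each, of which 3 of those of Nr4a3 are in the stretch shown. Short CREs numbering 4 or more were found in 0.231% of all 32851 windows, and 20.8% had at least 1. The limit of 4 was chosen after the Nr4a windows had been read. The Egr site was found in the windows of Zfp36 and Nr4a1, against 3.93% of all genes. A match of letters is a description of the sequence and not a mapped binding site.

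Library totals ran from 22858971 to 24536676 counts at days 5 and 10, from 14100815 to 14953162 at day 20, from 11913613 to 13554738 in CD organoids and from 16038205 to 16759872 in adult mCD. The detection limit used here, 3 counts in a library, came to 0.109 to 0.241 CPM (counts scaled to library size with TMM factors), and it covers counting error only. The 4 libraries of days 5 and 10 stood apart from the other 6. They held 1 to 24 counts of Y-linked genes against 3332 to 4076, and 0.969 to 1.58% mitochondrial counts against 3.10 to 3.40% in day 20 and CD organoids. Day 20 against day 10 cannot be told apart from these differences. Comparisons of CD organoids with day 20 and with adult mCD lie within the other 6 libraries. These were not alike either, since adult mCD held 9.64 and 9.86% mitochondrial counts. The UB markers were present in all groups, at summed levels of 2991 to 4487 CPM, with at least 7 of 8 genes above the limit. The sum does not describe each gene. Ret, a marker of the bud tip, was at 1483 CPM at day 10 and 2087 CPM at day 20. It was at 16.6 CPM in CD organoids and 5.48 CPM in adult mCD. Principal cell markers summed to 121 CPM at day 20, 1178 CPM in CD organoids and 8603 CPM in adult mCD.

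Together the 10 genes took 0.0188 to 0.0278% of all counts at days 5 and 10, 0.497 and 0.587% at day 20, 0.0183 and 0.0191% in CD organoids, and 0.925 and 0.802% in adult mCD. They were thus scarce in young UB organoids, plentiful at day 20, scarce again in CD organoids and plentiful in adult cells. The order of the groups was not the same for each gene, as the plot of levels by library shows.

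**Figure D1:**
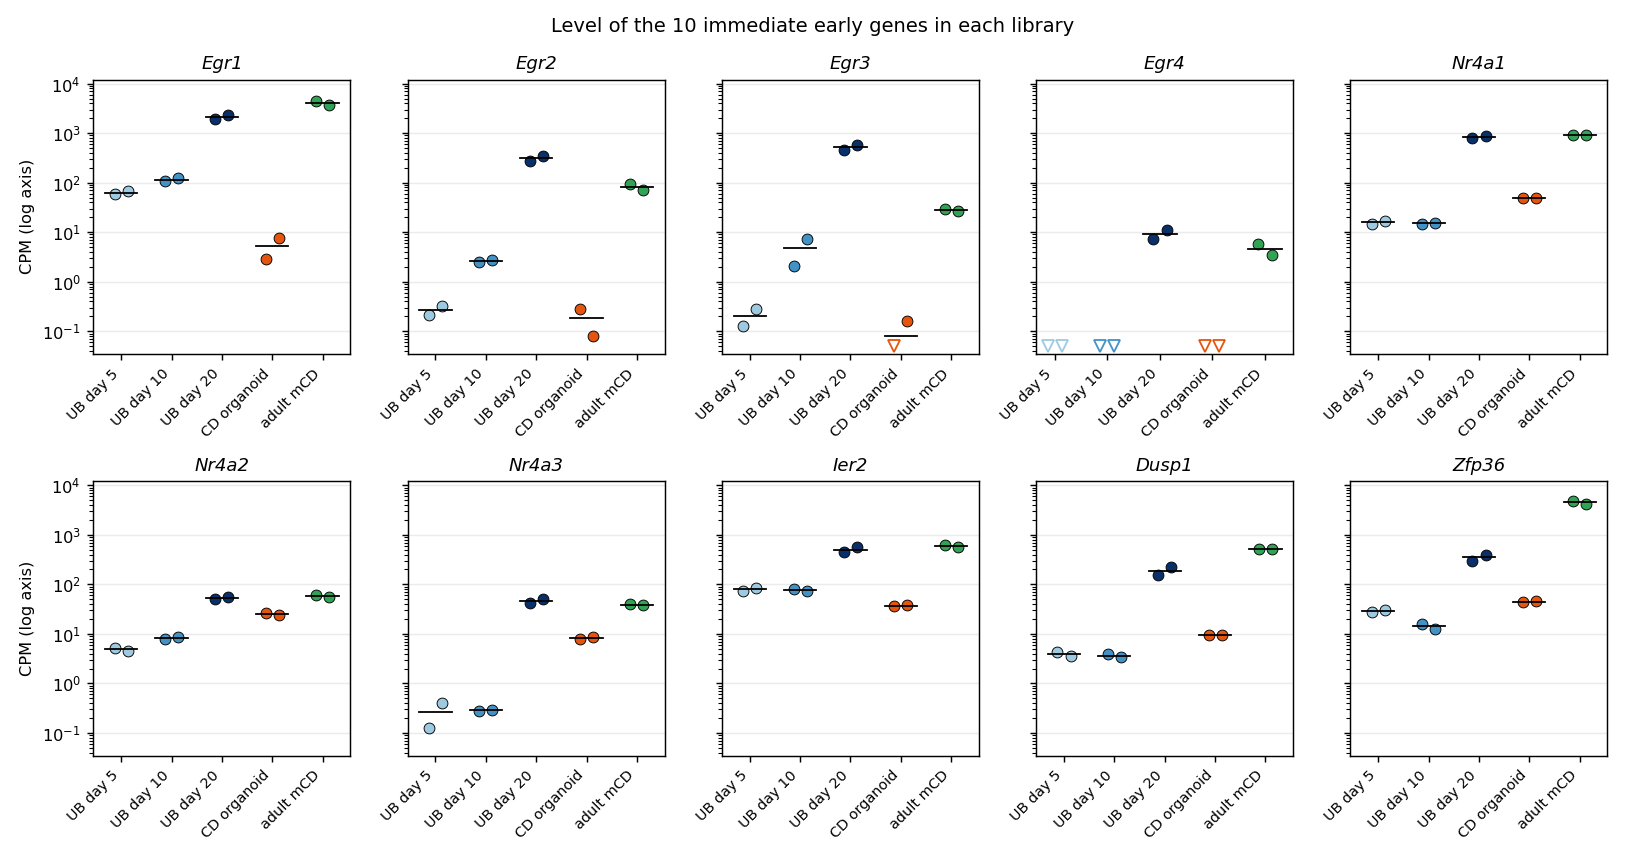
Level of each of the 10 immediate early genes in CPM on a log axis, with a circle for each of the 2 libraries of a group, a line at the group mean and an open triangle for a library below 0.05 CPM. Egr1 in CD organoids lay at 2.85 and 7.54 CPM, below all other libraries, whereas Nr4a1 in CD organoids, at 49.1 and 48.4 CPM, lay above days 5 and 10.

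Egr1, the Egr gene with the highest level per kilobase in every group, was at 58.1 and 68.2 CPM at day 5, at 107 and 122.5 CPM at day 10, and at 1949 and 2348 CPM at day 20. In CD organoids it was at 2.85 and 7.54 CPM, from 40 and 94 counts, and in adult mCD at 4497 and 3678 CPM. None of the 5 groups overlapped, with adult mCD on top and CD organoids at the bottom. The CD organoid libraries differed between themselves, so that the log2 difference from day 10, -4.48 ± 0.26 (SE, n = 2 per group), became -3.92 without the first and -5.29 without the second.

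Egr2 (chr10:67535475-67542188, plus strand), known for its part in hindbrain patterning and myelination, was at 0.214 and 0.327 CPM at day 5 and 2.54 and 2.77 CPM at day 10. It reached 269 and 347.5 CPM at day 20 and stood at 92.4 and 70.5 CPM in adult mCD. In CD organoids only 4 and 1 counts were found, or 0.285 and 0.0802 CPM. Day 20 was the highest group for this gene, and CD organoids overlapped with day 5.

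Egr3 (chr14:70077203-70082614, plus strand), a close relative of Egr2, was at 0.128 and 0.286 CPM at day 5 and at 2.10 and 7.44 CPM at day 10. The day 10 libraries were the most unequal pair for this gene among the groups with more than 3 counts in each library. At day 20 it was at 466 and 584 CPM, in CD organoids at 0 and 2 counts, and in adult mCD at 29.6 and 26.3 CPM. Day 20 was 18.7-fold higher than adult mCD, the reverse of the order seen for Egr1. The log2 difference of day 20 from day 10, 6.75 ± 0.33, was 6.15 without the first day 10 library and 7.95 without the second.

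Egr4 (chr6:85511121-85513589, minus strand), the member of the family with the lowest level per kilobase at day 20 and in adult mCD, was at 7.22 and 11.0 CPM at day 20 and 5.73 and 3.54 CPM in adult mCD. In all other libraries it had 0 or 1 counts. At day 20 it was 476-fold higher than at day 10 (95% counting interval from 84.8 to 18880), from 286 against 1 counts. In CD organoids, where both libraries were at 0, it was at least 79.97-fold lower than at day 20, with 3 counts per group as the limit.

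Nr4a1 (chr15:101254269-101274795, plus strand), also called Nur77, was at 14.9 and 17.2 CPM at day 5, 14.8 and 15.7 CPM at day 10, and 811 and 890.4 CPM at day 20. It was at 49.1 and 48.4 CPM in CD organoids and at 933 and 901 CPM in adult mCD. Days 5 and 10 overlapped, and the means of day 20 and adult mCD differed by less than the sum of their SDs.

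Nr4a2 (chr2:57106830-57124003, minus strand), also called Nurr1 and needed for midbrain dopaminergic neurons, had the narrowest range of the family. It was at 5.29 and 4.45 CPM at day 5, 7.97 and 8.71 CPM at day 10, and 51.6 and 55.3 CPM at day 20. CD organoids, at 26.8 and 24.5 CPM, stood between day 10 and day 20, and adult mCD, at 60.0 and 55.0 CPM, overlapped with day 20.

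Nr4a3 (chr4:48045153-48086447, plus strand), also called NOR-1, was near the limit of detection at day 5, at 0.128 and 0.408 CPM, and at 0.278 and 0.292 CPM at day 10. It rose to 42.1 and 51.8 CPM at day 20 and was at 40.0 and 38.5 CPM in adult mCD. At 7.90 and 8.50 CPM, CD organoids were 28.7-fold above day 10, with no overlap. By group means, all 3 Nr4a genes therefore had CD organoids as their middle group, whereas Egr1, Egr2 and Egr3 had them as their lowest.

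Ier2 (chr8:84661331-84662852, minus strand) was at no less than 36.8 CPM in any library. It was at 74.9 and 85.8 CPM at day 5, 79.8 and 74.8 CPM at day 10, and 454 and 559 CPM at day 20. CD organoids were lowest, at 36.8 and 37.6 CPM, and adult mCD, at 611 and 577.5 CPM, differed from day 20 by less than the sum of the SDs. Its CD organoid libraries lay below those of days 5 and 10, as did those of Egr1.

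Dusp1 (chr17:26505590-26562128, minus strand in GENCODE M21, with long transcripts that span Ergic1 on the opposite strand) was at 4.36 and 3.63 CPM at day 5 and 3.85 and 3.35 CPM at day 10. It was at 156 and 222 CPM at day 20, 9.61 and 9.70 CPM in CD organoids, and 513 and 516 CPM in adult mCD. CD organoids lay above days 5 and 10, without overlap, and adult mCD above day 20.

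Zfp36 (chr7:28376784-28380253, minus strand, overlapped by Gm44710 on the opposite strand) was the member whose level in adult mCD stood furthest above that at day 20. Its levels were 28.1 and 30.0 CPM at day 5, 15.9 and 12.7 CPM at day 10, and 303 and 399 CPM at day 20. In CD organoids it was at 43.1 and 46.4 CPM, and in adult mCD at 4904 and 4239 CPM. It was the only member with a lower level at day 10 than at day 5 and no overlap between those days, with a log2 difference of -1.02 ± 0.14. The library kits given by the labels and by the methods differ, so that counting by strand is not settled, and reads of Dusp1 and Zfp36 may include some from the opposite-strand genes.

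From day 5 to day 10, Egr2 and Egr3 differed most among the members, with log2 differences of 3.06 ± 0.38 and 4.22 ± 0.67 (SE, n = 2 per group). Without the second day 10 library, that of Egr3 was 3.01. Zfp36 followed in the other direction, at -1.02 ± 0.14, and then Egr1 and Nr4a2 with 0.86 ± 0.19 and 0.77 ± 0.13. Nr4a1, Nr4a3, Ier2 and Dusp1 overlapped between the days. By the rule used for all genes, more than 4-fold and an adjusted p no higher than 0.01, 3.41% of the 24410 genes tested were called, and 2 of the 10 members, Egr2 and Egr3. The count of members is a description only, since their choice rested on these libraries.

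From day 10 to day 20, all 10 members were higher, without overlap between the days. Nr4a3, Egr2 and Egr3 had the largest fitted differences, at 7.11 ± 0.23, 6.83 ± 0.18 and 6.75 ± 0.33 on the log2 scale, or 164-fold, 115-fold and 107-fold. Nr4a1 and Dusp1 came next at 5.80 ± 0.10 and 5.70 ± 0.17, then Zfp36 at 4.62 ± 0.15 and Egr1 at 4.22 ± 0.21. Ier2 and Nr4a2, at 2.71 ± 0.10 and 2.67 ± 0.11, had the smallest, at 6.53-fold and 6.39-fold. The 10 members were all called, against 3.39% of all genes, which repeats the choice of the members and supports nothing. Nr4a2 and Ier2 were the members nearest to the 4-fold limit.

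**Figure D2:**
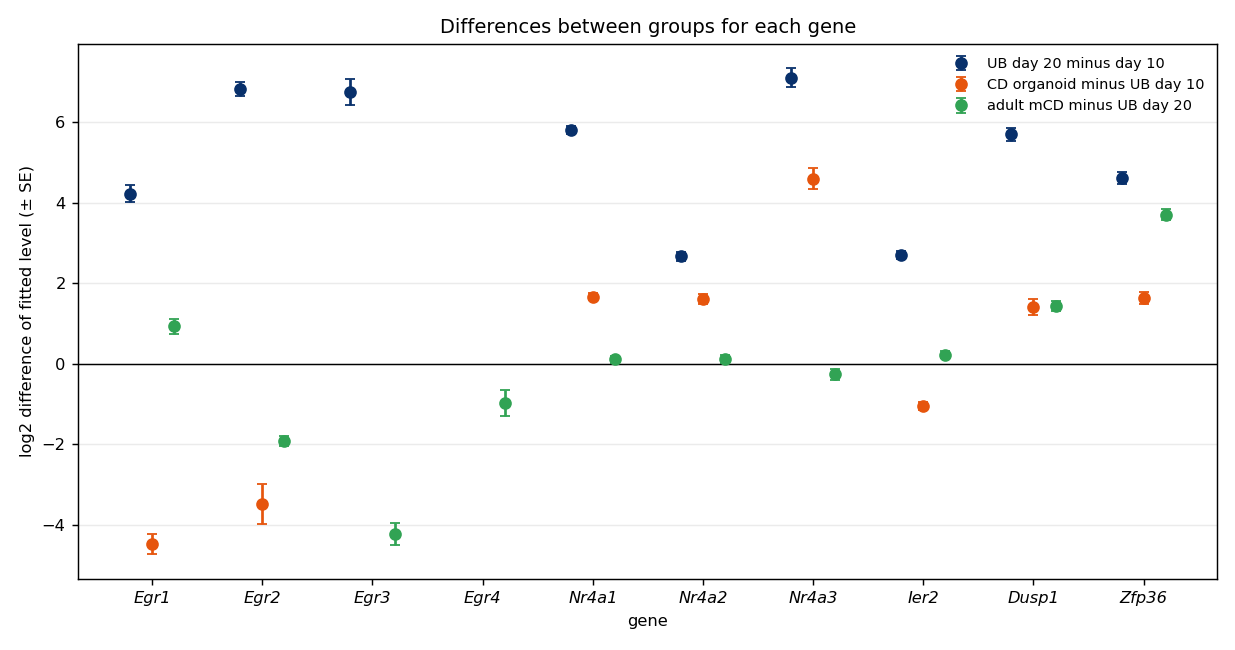
Fitted log2 difference of each member, with its SE, between day 20 and day 10 (blue), CD organoids and day 10 (orange) and adult mCD and day 20 (green); a gene with 3 or fewer counts in either group has no point. The orange points lie below 0 for Egr1, Egr2 and Ier2 and above 0 for Nr4a1, Nr4a2, Nr4a3, Dusp1 and Zfp36.

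In CD organoids the members parted from one another relative to the day 10 UB organoids from which the culture branched. Egr1, at -4.48 ± 0.26, and Egr2, at -3.48 ± 0.50, were lower on the log2 scale, and Egr3 was 64.7-fold lower (95% counting interval from 17.7 to 537). Without the first CD organoid library the value of Egr2 was -4.35. Ier2 was lower by a smaller margin, at -1.05 ± 0.11. The Nr4a genes were higher, at 1.67 ± 0.09 for Nr4a1, 1.61 ± 0.11 for Nr4a2 and 4.60 ± 0.27 for Nr4a3, and so were the feedback genes Dusp1, at 1.41 ± 0.20, and Zfp36, at 1.64 ± 0.15. By the rule for all genes, 10.7% of those tested were called and 4 members, Nr4a3 as higher and Egr1, Egr2 and Egr3 as lower. Day, medium and the set of libraries differ between these 2 groups and cannot be told apart. All 6 stromal markers were above the limit in both and summed to 279.8 and 148 CPM in CD organoids, against 25.1 and 19.5 CPM at day 10, and their part was not tested.

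Against day 20, CD organoids were lower for all 10 members without overlap. Both groups belong to the 6 libraries outside the set that stood apart. Day and medium differ between them and cannot be told apart. The difference was -8.71 ± 0.28 for Egr1 and -10.31 ± 0.27 for Egr2 on the log2 scale, and Egr3 was 6926-fold lower (95% counting interval from 1917 to 57200). Leaving out a CD organoid library moved the value of Egr1 to -8.14 or -9.54 and that of Egr2 to -11.18 or -9.85. It was -4.12 ± 0.09 for Nr4a1, -2.51 ± 0.16 for Nr4a3, -3.76 ± 0.11 for Ier2, -4.28 ± 0.16 for Dusp1 and -2.97 ± 0.14 for Zfp36. Nr4a2, at -1.06 ± 0.11, had the smallest gap and was the 1 member not called, against 9.46% of all genes called. Of the 9 members with a value, Egr1, Egr2 and Egr3 were thus the furthest apart and Nr4a2 and Nr4a3 the closest.

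Adult mCD were higher than CD organoids for all 10 members without overlap. The differences were 9.63 ± 0.29 for Egr1 and 8.39 ± 0.30 for Egr2, and Egr3 was 371-fold higher (95% counting interval from 102 to 3068). Without the first CD organoid library these values were 9.07 for Egr1 and 9.26 for Egr2, and without the second 10.47 and 7.93. Egr4 was at least 41.2-fold higher. Zfp36, at 6.67 ± 0.16, and Dusp1, at 5.73 ± 0.16, stood above Nr4a1, at 4.23 ± 0.09, Ier2, at 4.0 ± 0.11, Nr4a3, at 2.25 ± 0.16, and Nr4a2, at 1.16 ± 0.11. Of all genes tested 14.3% were called, and 9 of the 10 members, with Nr4a2 again outside. Other measures moved with adult mCD. All 8 proximal tubule markers were above the limit in both adult libraries and summed to 5050 and 6113 CPM, against 6.55 to 34.4 CPM in the organoid libraries, where 2 to 4 of 8 were above it and Slc22a6 was at 0 at days 5 and 10. The 6 endothelial markers summed to 719 and 699 CPM, against 2.07 to 9.51 CPM. Leukocyte markers summed to 72.7 and 80.2 CPM, with 7 of 8 above the limit. CD organoids had 105.8 and 95.9 CPM, with only 3 of 8 above it and C1qa and Tyrobp at 0. The mitochondrial share in adult mCD was 9.64 and 9.86%. The part of these in the levels of the members was not tested. Dissociation and sorting by FACS, age, genotype and cell make-up differ between adult mCD and CD organoids and cannot be told apart.

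Adult mCD and day 20 UB organoids, the groups with high levels, differed in the make-up of the early genes. The Egr genes summed to 4202 CPM in adult mCD and 2991 CPM at day 20, and the Nr4a genes to 1014 and 951 CPM. Egr1 was higher in adult mCD by 0.93 ± 0.19 on the log2 scale, whereas Egr2, Egr3 and Egr4 had lower values, at -1.92 ± 0.13, -4.23 ± 0.28 and -0.97 ± 0.32. The Nr4a genes differed little, at 0.11 ± 0.08 for Nr4a1, 0.11 ± 0.10 for Nr4a2 and -0.26 ± 0.14 for Nr4a3, as did Ier2, at 0.23 ± 0.10. The feedback genes were higher in adult mCD, Dusp1 by 1.44 ± 0.12 and Zfp36 by 3.70 ± 0.14. Sorting, age, genotype and cell make-up differ between these groups as well and cannot be told apart.

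Levels of different genes were compared per kilobase of merged exon sequence in GENCODE M21. At day 20, Egr1 led at 479 ± 62.9 CPM per kb (SD, n = 2), ahead of Ier2 at 333 ± 49.1 and Nr4a1 at 242 ± 16.1. In adult mCD, Zfp36 led at 1317 ± 136 CPM per kb, ahead of Egr1 at 912 ± 129 and Ier2 at 390.4 ± 15.4. In CD organoids the first place went to Ier2, at 24.4 ± 0.373 CPM per kb, followed by Nr4a1 at 13.9 ± 0.155 and Zfp36 at 12.9 ± 0.654, while Egr1 came seventh at 1.16 ± 0.74. The leading early gene per kilobase was thus Ier2 at days 5 and 10, Egr1 at day 20, Ier2 in CD organoids and Zfp36 in adult mCD. The deposited RPKM gave Ier2 the first place at day 20, at 346 against 297 RPKM for Egr1. They divide by a length that, for 98.2% of the matched genes, equals the exon lengths summed over all annotated transcripts. It is 1.68 times the merged length for Egr1, 3.41 times for Nr4a2 and 1.00 times for Ier2, so comparisons between genes from that column depend on how many transcripts are annotated. The merged length depends on the annotation too. It is 3509 bases for Nr4a1, against 2553 in its main transcript, and 1522 bases by either measure for Ier2. Ranks of genes with close levels may therefore change with the length used.

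Within the families, the level per kilobase of one gene was set against that of another in the same library. Egr2 was at 18.2 and 19.5% of Egr1 at day 20 and at 2.71 and 2.53% in adult mCD. Egr3 was at 24.3 and 25.3% of Egr1 at day 20 and at 0.670 and 0.726% in adult mCD. Nr4a2 kept to 5.50 and 5.37% of Nr4a1 at day 20 and 5.56 and 5.28% in adult mCD, but reached 47.1 and 43.7% in CD organoids. It had been at 46.6 and 47.9% at day 10. Nr4a3 was at 3.04 and 3.41% of Nr4a1 at day 20, 9.43 and 10.3% in CD organoids and 2.513 and 2.504% in adult mCD. The balance of the Egr family thus differed between day 20 and adult mCD, while the Nr4a2 share of Nr4a1 overlapped between them.

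**Figure D3:**
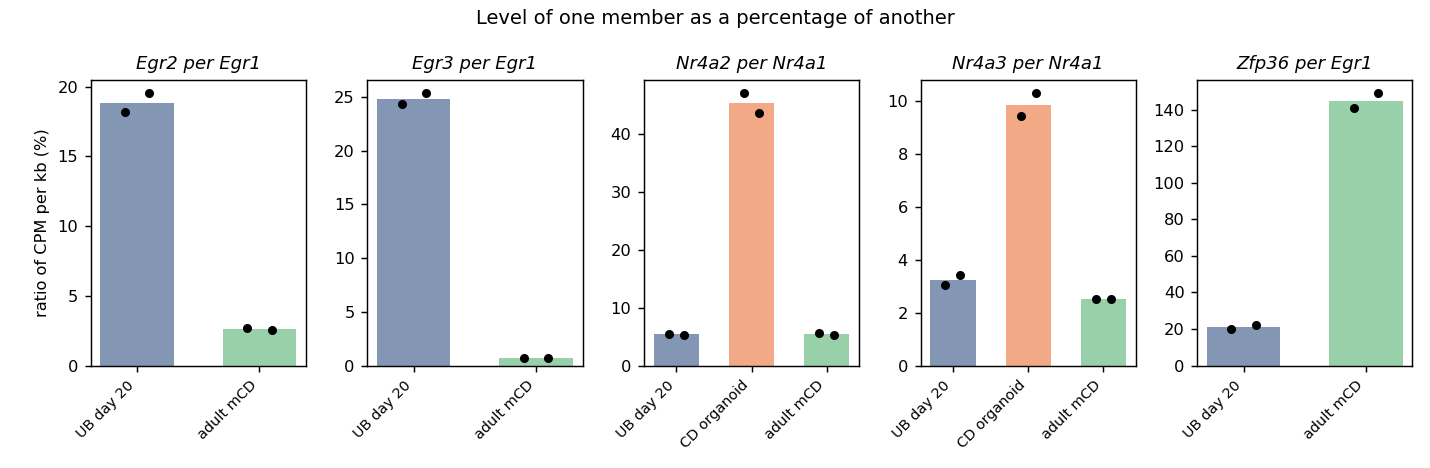
Level per kilobase of one member as a percentage of another in the same library, with bars at the mean of 2 libraries and dots at the libraries. Egr2 and Egr3 made up 18.2 to 25.3% of Egr1 at day 20 and 0.670 to 2.71% in adult mCD, while Zfp36 went from 20.1 and 21.97% of Egr1 to 141 and 149%.

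Regulators that act back on the early response were taken as a list of 28 non-members, which comprises the Egr corepressors Nab1 and Nab2, other dual specificity phosphatases, the Sprouty and Spred inhibitors of receptor tyrosine kinase signalling, relatives of Zfp36, and inhibitors of cytokine and NF-κB signalling. Tests on these genes were made with edgeR (quasi-likelihood), and p-values were adjusted over all genes tested by Benjamini-Hochberg. This list and those below were chosen with earlier results of these data known. Their counts and p-values are therefore no independent support. From day 10 to day 20, 3.39% of all genes tested were called. Of the 28, 3 rose, none fell and 25 were not called, and the median log2 difference was 0.52 against -0.10 over all genes. Those that rose were Dusp5, an ERK phosphatase, from 5.97 to 98.1 CPM (log2 difference 4.03 ± 0.15, adjusted p = 1.03e-09), Dusp8, a phosphatase of JNK and p38, by 2.74 ± 0.17 (adjusted p = 1.28e-07), and Spry1, by 2.03 ± 0.09 (adjusted p = 4.60e-09). Dusp6, the cytoplasmic ERK phosphatase, was at 403 ± 70.2 CPM at day 10 and 439 ± 35.2 CPM at day 20 (SD, n = 2), with overlapping libraries and an adjusted p of 0.441. Nab2 was at 74.2 ± 7.11 CPM at day 10 and 33.8 ± 1.15 CPM at day 20 (log2 difference -1.13 ± 0.11, adjusted p = 8.86e-06), a change in the other direction from Egr1 that did not pass 4-fold. Per kilobase, Nab2 stood at 98.2 and 98.6% of Egr1 at day 10 and at 2.58 and 2.25% at day 20. Nab1, at 61.8 ± 3.12 and 56.9 ± 1.12 CPM, had an adjusted p of 0.357.

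**Figure D4:**
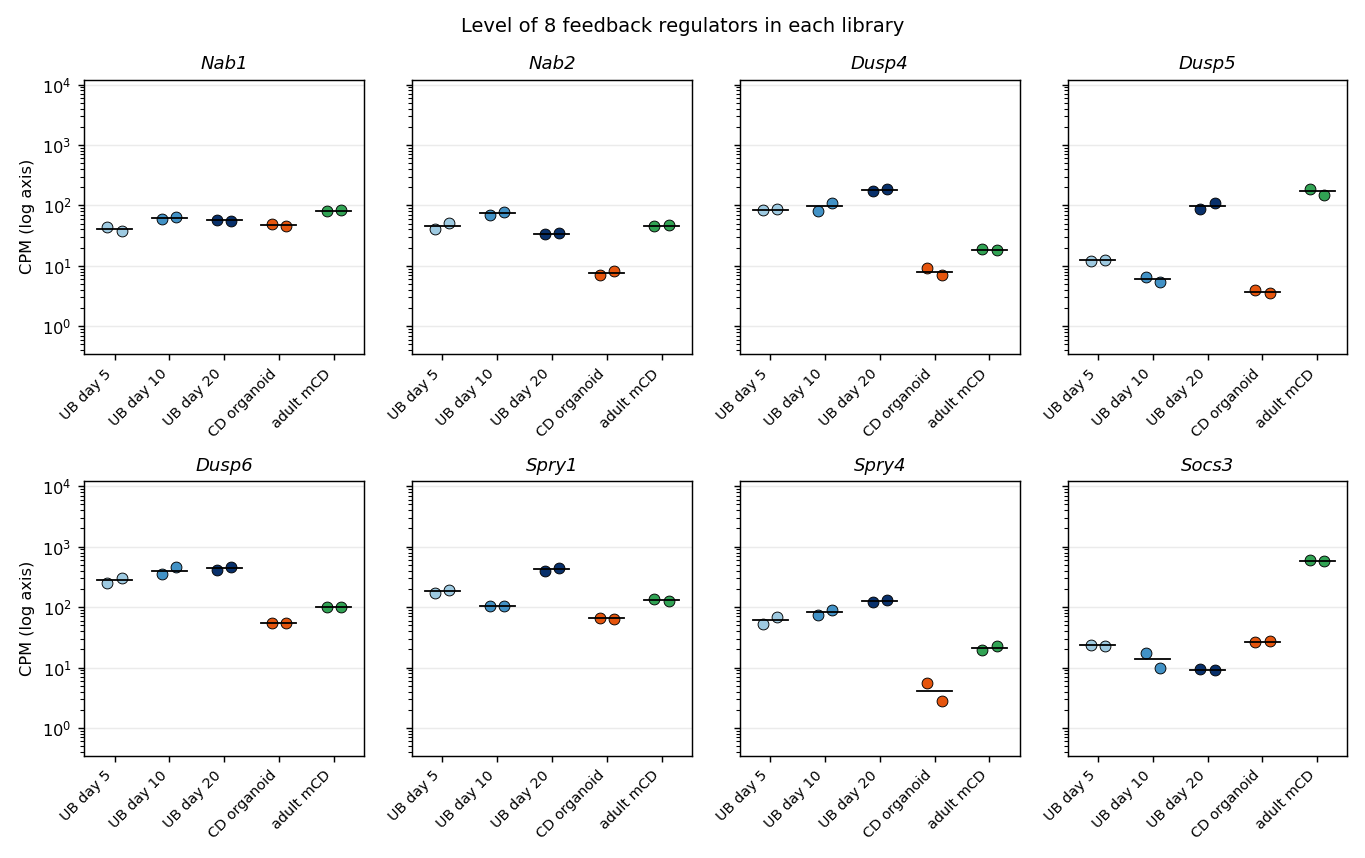
Level of 8 feedback regulators in CPM on a log axis, with a circle for each of the 2 libraries of a group and a line at the group mean. Dusp6, Dusp4, Nab2 and Spry4 had their lowest levels in CD organoids, while Nab1 kept between 37.4 and 84.0 CPM in all libraries.

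In CD organoids against day 10, 10.7% of all genes tested were called. Of the 28, 1 rose and 5 fell, with a median of -0.38 against -0.15 over all genes. Spry4 fell from 83.1 to 4.14 CPM (log2 difference -4.29 ± 0.22, adjusted p = 1.87e-09), and Dusp4, Dusp6 and Dusp9, whose products act on ERK, fell by 3.57, 2.87 and 5.80 on the log2 scale (adjusted p = 3.64e-10, 3.80e-10 and 1.94e-11). Nab2 fell by 3.29 (adjusted p = 3.01e-10). The one that rose was Dusp8. Against day 20, 9.46% of all genes tested were called. Of the 28, 8 fell and 1, Cish, rose, with a median of -0.51 against 0.00. Dusp6 was at 414.5 and 464 CPM at day 20 and 55.0 and 55.1 CPM in CD organoids (log2 difference -3.00 ± 0.12, adjusted p = 4.05e-10), and Dusp5, at 98.1 and 3.76 CPM, fell by 4.68 (adjusted p = 1.56e-10). The relatives of Zfp36 did not pass 4-fold: Zfp36l1 was at 425 ± 42.4 CPM at day 20 and 308 ± 10.6 CPM in CD organoids, and Zfp36l2 at 90.6 ± 5.48 and 110.4 ± 7.25 CPM.

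Between adult mCD and CD organoids, 14.3% of all genes tested were called. Of the 28, 13 were higher and 1, Spred3, was lower, with a median of 1.41 against 0.00. The largest were Dusp2, at 22.2 against 0.347 CPM (log2 difference 5.82 ± 0.42, adjusted p = 5.17e-08), and Dusp5, at 170 ± 27.6 against 3.76 ± 0.324 CPM (5.48 ± 0.17, adjusted p = 1.88e-11). In CD organoids Dusp2, at 0.347 ± 0.189 CPM, was near the detection limit, so its difference is imprecise. Dusp9 followed, at 15.6 against 0.490 CPM (4.84 ± 0.19, adjusted p = 1.31e-10), and then the cytokine inhibitors Socs3 and Cish, at 583 against 26.7 CPM and 233 against 18.4 CPM (adjusted p = 1.81e-10 and 1.69e-11). Dusp6, at 99.8 ± 0.442 against 55.1 ± 0.0413 CPM, did not pass 4-fold (log2 difference 0.86 ± 0.12, adjusted p = 3.89e-05). Spry4 was higher by 2.31 ± 0.24 (adjusted p = 2.20e-06) and Nab2 by 2.60 ± 0.14 (adjusted p = 3.16e-09). From day 5 to day 10, 1 of the 28 rose, Dusp10, from 1.30 to 18.8 CPM (log2 difference 3.81 ± 0.32, adjusted p = 1.84e-06), though the day 10 libraries were at 12.3 and 25.4 CPM. Of all genes tested, 3.41% were called there, a share like that of the list.

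A second list held 41 other genes of the early response, also chosen with earlier results of these data known. From day 10 to day 20, 17 of the 41 rose and none fell, and the median log2 difference was 1.56 against -0.10 over all genes. Among them were Klf2 and Klf6, Krüppel-like transcription factors, with 6.98 ± 0.32 and 4.55 ± 0.18 (adjusted p = 7.67e-09 and 1.59e-09), Ccn2, a matricellular protein gene, with 6.64 ± 0.20 (adjusted p = 1.43e-10), the antiproliferative gene Btg2 with 4.89 ± 0.16 (adjusted p = 3.28e-10) and the Notch target Hes1 with 4.44 ± 0.17 (adjusted p = 1.19e-09). At day 10 Klf2, at 0.1855 ± 0.1502 CPM, was near the detection limit, so its differences from day 10 are imprecise. From day 5 to day 10, 3 rose, Arc, Sgk1 and Ptgs2, and none fell. In CD organoids against day 10, 6 rose, led by Klf2 at 7.15 ± 0.32 and Sgk1, a kinase induced by aldosterone, at 5.16 ± 0.12 (adjusted p = 5.69e-10 and 2.09e-12), and 3 fell, Arc, Ccn1 and Plk2. Against day 20, 12 fell and 1, Sgk1, rose. Arc, the neuronal cytoskeletal gene, fell most there, from 420 ± 50.7 to 0.842 ± 0.284 CPM (-8.89 ± 0.27, adjusted p = 3.73e-11), next to Ccn1 at -7.79 ± 0.31 (adjusted p = 2.74e-10). In adult mCD against CD organoids 27 rose and none fell, with a median of 2.46 against 0.00. For the comparisons of this list, in the order given, 3.39, 3.41, 10.7, 9.46 and 14.3% of all genes tested were called.

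The list of 10 AP-1 genes held the Fos and Jun genes with Atf3, Maff and Batf. Of the 10, 7 rose from day 10 to day 20: Fos, Fosb, Fosl1, Jun, Junb, Atf3 and Maff, with Fosb from 1.07 to 618 CPM (adjusted p = 5.71e-09) and Fos from 3.31 to 819 CPM (adjusted p = 1.32e-10), while Jund, Fosl2 and Batf were not called. In CD organoids against day 10, Fos alone was called, at 16.4 against 3.31 CPM (adjusted p = 1.95e-06), and Jun stood at 122 ± 1.49 against 125 ± 6.02 CPM (adjusted p = 0.755). Of all genes tested, 3.39% were called from day 10 to day 20 and 10.7% in CD organoids against day 10. The list was near the latter share. The AP-1 genes too were chosen with earlier results of these data known.

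**Figure D5:**
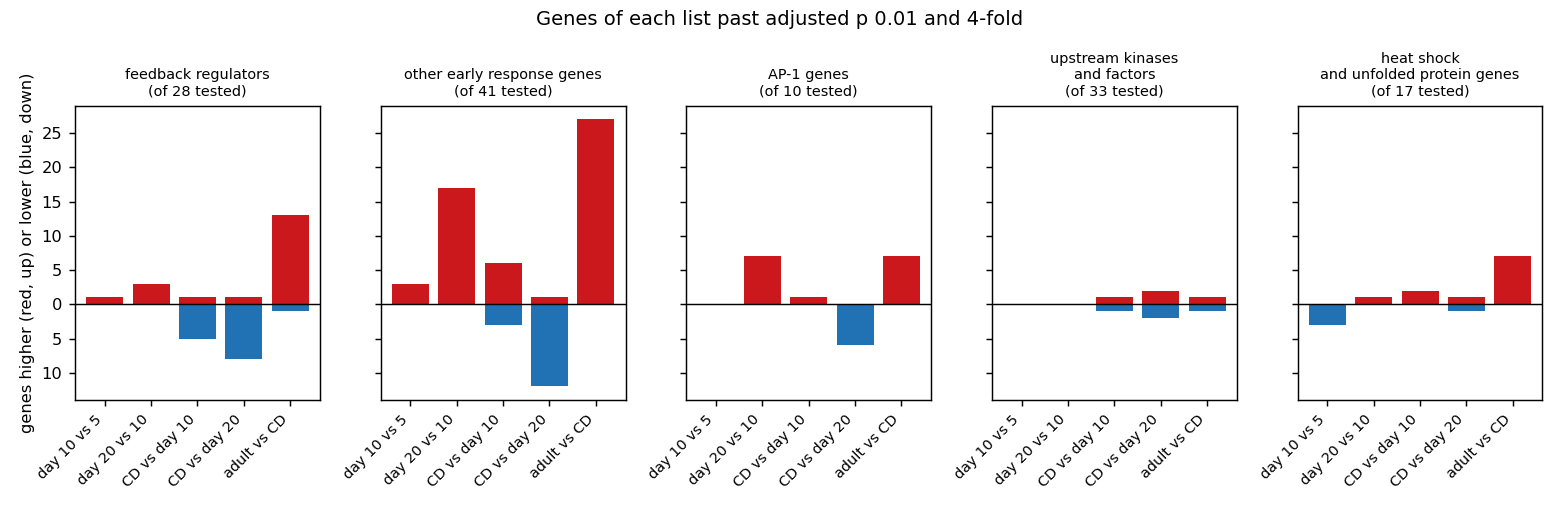
Number of genes of each of 5 lists of non-members called higher (upward, red) or lower (downward, blue) in each comparison at more than 4-fold and an adjusted p no higher than 0.01. From day 10 to day 20, 17 of 41 other early response genes and 7 of 10 AP-1 genes rose, against 3 of 28 feedback regulators and 0 of 33 upstream kinases and factors. Over all genes tested, 3.39% were called in that comparison. The lists were chosen with earlier results of these data known.

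Kinases and factors that act upstream formed a list of 33, from Ret, Fgfr2 and the Ras genes to Srf and the CREB genes. None was called from day 10 to day 20 by edgeR, nor by DESeq2, though 17 of the 33 had an unadjusted p below 0.05 and 12 an adjusted p no higher than 0.05, 6 in each direction. Of all genes tested, 3.39% were called by the rule with the 4-fold limit, a share at which few of 33 would be. The shares of all genes at the looser limits were not counted. The SRF gene Srf itself was at 51.8 CPM at day 10 and 173.5 CPM at day 20 (log2 difference 1.74, adjusted p = 1.69e-08), under 4-fold. In CD organoids against day 10, 2 of the 33 were called, against 10.7% of all genes tested. Ret fell from 1483 ± 176 to 16.6 ± 1.13 CPM (-6.48 ± 0.40, adjusted p = 1.19e-08) and Crem, a CREB family gene, rose from 8.17 to 46.95 CPM (2.51 ± 0.10, adjusted p = 1.81e-10). Against day 20, 4 of the 33 were called in CD organoids, Ret and Srf as lower and Egfr and Rps6ka1 as higher. Of all genes tested, 9.46% were called there. Srf stood at 33.7 ± 0.86 CPM in CD organoids, called lower than at day 20 (-2.36 ± 0.09, adjusted p = 2.81e-10). These are levels of mRNA, and the activity of the kinases was not measured.

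Genes of the heat shock and unfolded protein responses, 17 in the list, were read beside the members. From day 10 to day 20, 3.39% of all genes tested were called. In the list 1 rose, Chac1, and none fell past 4-fold. At any fold, 9 had a higher and 3 a lower level with an adjusted p no higher than 0.05, among them Ddit3 and Atf4, higher by 1.31 ± 0.17 and 1.17 ± 0.08 (adjusted p = 8.61e-05 and 3.04e-07). The 3.39% belongs to the rule with the 4-fold limit, and the share of all genes at any fold was not counted. Hspa1a was at 5.49 CPM at day 10 and 4.96 CPM at day 20. Its close relative Hspa1b was at 25.2 and 43.2 CPM, without overlap (adjusted p = 0.0829). From day 5 to day 10, 3 of the 17 had been called lower, Ddit3, Trib3 and Chac1, where 3.41% of all genes tested were called. Chac1 was at 8.30 CPM at day 5, 1.31 CPM at day 10 and 7.63 CPM at day 20. Ddit3 was at 74.15, 13.2 and 32.7 CPM on these days, so that day 20 stayed below day 5. Atf4, at 273, 156 and 350 CPM, was above day 5 at day 20. In adult mCD against CD organoids 7 rose and none fell, among them Hspa1a, at 497 ± 40.2 against 16.2 ± 1.36 CPM (4.93 ± 0.40, adjusted p = 1.65e-07), and its co-chaperone Dnajb1, at 799 ± 19.5 against 71.0 ± 6.92 CPM (3.49 ± 0.09, adjusted p = 5.47e-12). Of all genes tested, 14.3% were called in that comparison. The part of the heat shock genes in the levels of the members was not tested.

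The profile of the members, the mean of their log2 CPM each centred on its own mean, ran from -2.76 at day 5 to 3.63 at day 20. Pearson's r between pairs of members over the 10 libraries, given as a description, lay between 0.523 for Egr1 with Nr4a3 and 0.987 for Nr4a1 with Dusp1, with Dusp1 and Zfp36 at 0.965 and Egr2 and Egr3 at 0.964. The libraries fall into 5 groups, so that these values rest largely on the 5 group means. Outside the list, the genes whose log2 CPM were most like the profile were Itga6, at r = 0.988, Yrdc and Creg1, at 0.980 each, Ccn2, at 0.975, Jun, at 0.973, Tatdn2, at 0.972, Fosb, at 0.970, Cyp20a1, at 0.969, Larp4, at 0.968, and Irf2bpl, at 0.966. Of these, Ccn2, Jun and Fosb moved over a range like that of the members, whereas Itga6, an integrin gene, spanned 168 to 393 CPM. By Spearman's rho a different set came first, with 0 of the 10 in common.

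The members shared features of gene structure that their choice had not used. Their main transcripts had a median of 2 exons, against 9 in the 16481 protein-coding genes tested, and 6 of the 10 had 1 or 2 exons, against 9.42% of those genes. The 3 Nr4a genes were the exception, with 8 exons each, and Dusp1 had 4. The median gene span was 6063 bases against 23450, while the transcripts were of like length, with medians of 2878 and 2899 bases. The 3′ untranslated regions held at least 3 copies of ATTTA, the core of the AU-rich element, in 7 of the 10 members, against 32.5% of the genes tested. Over all members they held 2.35 copies per kilobase, against 1.84 in the genes tested. Egr3 had the most, with 7 copies, and Egr4 and Ier2 had none.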

How the data were processed

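The authors sequenced mRNA of 10 mouse samples and, per their methods, trimmed the reads in Partek Flow, aligned them with STAR to mm10 and counted them on genes of GENCODE M24 by an expectation-maximisation model that divides reads mapping to several genes. The submitters' processing notes also list FastQC 0.11.8, cutadapt 2.5, Trimmomatic 0.36 and edgeR 3.28.1. The deposited table gives for each library whole-number counts, which were used here for every test, RPKM values that the authors computed per kilobase of their length column, used as an alternative and for ranks, and scaled counts (a signal named TMM by the authors) that entered no test.

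For the comparisons of counts, edgeR 4.0.16 (R 4.3.3) was run with TMM factors, its quasi-likelihood test, prior count 1 and adjustment by Benjamini-Hochberg. Since groups hold 2 libraries, the means of all 5 groups were fitted together and share one estimate of the spread for each gene. The pairs were not equally close. The chi-square of their counts per degree of freedom was 10.73 at day 5 and 25.37 at day 10. It was 2.88 at day 20, 2.72 in CD organoids and 4.97 in adult mCD. The shared estimate does not follow this, so SEs and p-values against day 5 or day 10 may be too small. Genes with at least 10 counts in all were tested (24410), and called at more than 4-fold with an adjusted p no higher than 0.01. The common dispersion was 0.00831. Standard errors were derived from the test statistic. A ratio against a group with 1 to 3 counts carries an exact 95% counting interval, and one against a group at 0 is a lower bound from 3 counts. SDs are over 2 libraries. Neighbouring groups were said to differ when their means differed by more than the sum of their SDs. Positions and exon lengths came from GENCODE M21 on GRCm38, the build of the files, which held 99.7% of the identifiers. Promoter windows came from RefSeq.

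The 10 members and all gene lists were chosen with earlier results of these data known. Named beside the members were all AP-1 genes, Nab1, Nab2, Dusp6, Spry4, Zfp36l1 and Zfp36l2, up to 5 called genes per list and comparison with the largest log2 differences, a mean of at least 5 CPM and no overlap, and the 10 genes most like the members. Hspa1a, Hspa1b, Ddit3, Atf4 and Srf from day 10 to day 20 were named after their values were seen, as were single called genes outside this rule. Alternatives changed the scaling, filter, prior count, threshold, tool (DESeq2 1.42.0), the libraries in the fit and a replicate block. The fit was first tested on simulated data. Python 3.11.15, numpy 2.4.6, pandas 2.3.3, scipy 1.17.1 and matplotlib 3.10.9 were used. The primary tissue libraries and human organoids of the study were not analysed here.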

Additional observations from a re-analysis of the deposited data

How the results depend on the processing

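For the feedback, other early response, upstream and heat shock lists, 14 counts of called genes stayed within 1.5 times of the reported values with RLE factors, library totals, DESeq2, another filter or none, a prior count of 5, a fit of only the 2 groups compared and a replicate block. The count of the heat shock list from day 5 to day 10 was not among the 14. Nor was that of the upstream list in CD organoids against day 20. With no fold limit and an adjusted p no higher than 0.05, all 14 counts were larger, 13 of them by more than 1.5 times. The feedback list then gave 18 from day 5 to day 10, 19 from day 10 to day 20, 25 for CD organoids against day 10, 22 against day 20 and 28 for adult mCD against CD organoids. The other early response list gave 24, 37, 34 and 33 in the first 4 of these comparisons. The upstream list gave 12 from day 10 to day 20 and 25 for CD organoids against day 10, and the heat shock list 12 from day 10 to day 20 and 16 for adult mCD against CD organoids. The share of all genes that pass this looser rule was not counted. These larger counts therefore have no background beside them and are no result about the lists. Leaving out 1 library at a time moved 1 count, that of the upstream list from day 10 to day 20, between 0 and 1, the latter without the second day 10 library.

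Replicate numbers are shared between groups by number only. The deviations of replicate 1 from its group correlated between groups at -0.209 to 0.084 over the 10 pairs of groups. A replicate block moved the members' log2 differences by at most 0.04 and changed no count beyond 1.5 times, for example 3 feedback regulators called from day 10 to day 20.

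Of 378 alternative values of the members' log2 differences, 308 lay within 1 SE of the reported one and 5 changed sign. All 5 were from day 5 to day 10, for members whose reported difference was near 0. With library totals, Nr4a1 gave 0.07 and Ier2 0.09. Leaving out a day 5 library gave -0.16 and 0.04 for Nr4a1, -0.14 and 0.05 for Ier2, and -0.44 and 0.89 for Nr4a3. The largest shifts were 2.37 with deposited RPKM and a pseudocount of 0.1, which shrinks low genes by its construction, 1.21 when 1 library was left out, 0.92 with a prior count of 5 and 0.40 with library totals. Low counts of Egr2, Egr3, Egr4 and Nr4a3 at days 5 and 10 and in CD organoids limit the precision of their ratios.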
